A study of Arabidopsis thaliana with 12 samples.

Results

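The 8 genes described here are the polygalacturonases PGAZAT (AT2G41850, also called ADPG2), ADPG1 (AT3G57510) and QRT2 (AT3G07970), the pectin methylesterase ATPMEPCRD (AT2G43050), the GH9 family gene GH9B15 (AT4G23560), and the signalling genes IDA (AT1G68765), HAE (AT4G28490) and HSL2 (AT5G65710). They are 8 of the 25383 loci on the array and were taken through all 11 of their probes. The set was chosen by role in cell separation, with the measured intensity differences between the genotypes on these same arrays known. Their differences between genotypes are therefore given as descriptions, with no p-value printed for any of the 8. Counts of them past the threshold in the main fit are printed beside the share of all genes. Counts under other fits or by unadjusted p are printed too, not all of them beside such a share. None of these counts is read further.

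Plant organs are shed, and anthers and fruits open, when cells along a separation layer dissolve the pectin and cellulose between them. In Arabidopsis the small secreted peptide IDA is perceived by the receptor kinases HAE and HSL2, a MAP kinase cascade and KNOX homeodomain proteins act downstream, and wall enzymes then loosen the layer. Among those enzymes, polygalacturonases cut the pectin backbone, pectin methylesterases remove its methyl groups, and endoglucanases of glycosyl hydrolase family 9 (GH9) act on cellulose-type glucans. ARF2 is an auxin response factor whose mutants are known for late shedding of floral organs, and GNC and GNL are a pair of related class B GATA factors that promote chlorophyll formation.

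Transcripts of whole, untreated 10-day-old Arabidopsis thaliana seedlings of the Col-0 accession, grown in long days, were measured on 12 one-colour Agilent arrays. The groups were arf2 (the arf2-8 allele), the gnc gnl double mutant, a group titled arf2-8 gnc gnl (called the libraries labelled arf2 gnc gnl here), and wild type (WT), and per the series design each genotype had 3 biologically independent samples. All groups share accession, age and growth conditions, and arf2-8 is the 1 allele that the labels name. The sample is a whole seedling, so fewer cells of a type and less RNA per cell cannot be told apart in any value below.

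The 75th percentile of processed intensity ran from 2062 to 2872 across the arrays, 64.6% to 70.2% of probes were well above background, and arrays of a genotype correlated at 0.988 to 0.996. The ARF2 probe read 0.392% to 3.04% of the WT mean in arf2, the GNL probe 2.29% to 6.67% in gnc gnl, and the 2 GNC probes 2.38% to 5.88% in gnc gnl. In the libraries labelled arf2 gnc gnl the GNC probes read 5.16% to 9.67% of the WT mean, but ARF2 read 54.4% to 70.5% and GNL 166.8% to 178.7%, which goes against the label for both genes. Every direction given for those libraries rests on that label. All WT arrays shared slide 1 with arf2 replicate 1. The other arf2 arrays were on slide 2 with labelled arf2 gnc gnl replicates 1 and 2, and all gnc gnl arrays were on slide 3 with labelled arf2 gnc gnl replicate 3. No slide held both gnc gnl and WT, both the labelled arf2 gnc gnl libraries and WT, or both arf2 and gnc gnl. For those comparisons slide and genotype cannot be told apart within a slide.

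The green shoot markers RBCS1A, LHCB1.3, LHCB1.1, PSBO1, RCA and PSAD1 were well above background on all arrays. Of 7 flower markers, AP3, AG, SEP2 and AMS stayed near background on every array, and the whole list summed to 456 to 628 in arf2, 983 to 1379 in gnc gnl, 764 to 1049 in the labelled arf2 gnc gnl libraries and 673 to 730 in WT, in units of normalised intensity. The 10 seed storage, oil body and late embryo markers summed to 137268 to 229870 in arf2, 7862 to 74705 in gnc gnl, 38128 to 129310 in the labelled arf2 gnc gnl libraries and 4009 to 5568 in WT. The 12 root markers summed to 14265 to 16668 in arf2, 20506 to 22672 in gnc gnl, 17723 to 18036 in the labelled arf2 gnc gnl libraries and 11842 to 17982 in WT. The root and flower sums were highest in gnc gnl, the group in which PGAZAT, GH9B15, ATPMEPCRD and HAE below were also highest, and the seed sum was highest in arf2, where ATPMEPCRD and HAE were lowest. SESA1 and SESA2 of the seed list were not well above background in WT, nor was CRU2 in arf2, and of the root list neither LBD29 in arf2 nor NRT2.1 in arf2 and gnc gnl was. The part of other tissues in the results was not tested.

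Levels are given as normalised intensity, the deposited processed intensity divided by the array's 75th percentile and multiplied by the mean percentile of the 12 arrays, 2446. The dimmest probes well above background stood at 41.4 to 88.8 on this scale, depending on the array. A probe without a single array well above background in a group has only an upper bound there, and a fold against such a group is written as at least N-fold, against the array's lowest level well above background or the probe's own level where higher. Each bound holds for this scaling and for the probe it is given with. Levels of different probes cannot be set against each other.

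PGAZAT, the polygalacturonase of floral abscission zones, was measured well above background on all 3 gnc gnl arrays by both of its probes. Its probe 1 read 18.1, 16.0 and 14.9 in arf2, 341.4, 579.3 and 442.7 in gnc gnl, 25.1, 42.0 and 92.8 in the labelled arf2 gnc gnl libraries, and 51.6, 44.9 and 40.9 in WT. The gnc gnl arrays were the high ones and overlapped no other group, while the labelled arf2 gnc gnl arrays overlapped WT and only replicate 3 of them was well above background. Group means were 16.4 ± 1.63 in arf2, 454 ± 119 in gnc gnl, 53.3 ± 35.3 in the labelled arf2 gnc gnl libraries and 45.8 ± 5.41 in WT (SD, n = 3 each). No arf2 or WT array was well above background with probe 1. With this probe, the gnc gnl level was at least 7.01-fold that of WT, and the arf2 level was at least 5.47-fold lower than that of gnc gnl.

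The second PGAZAT probe had the same high group. It read 18.5, 16.8 and 15.7 in arf2, 254.6, 415.6 and 305.3 in gnc gnl, 14.4, 31.3 and 54.6 in the labelled arf2 gnc gnl libraries, and 63.0, 48.7 and 57.9 in WT. Here WT replicate 1 was well above background and the other WT arrays were not. Of the labelled arf2 gnc gnl arrays only replicate 3 was well above background with this probe. The gnc gnl mean was 5.67-fold the WT mean with this probe. The log2 difference of the libraries labelled arf2 gnc gnl from gnc gnl was -3.45 with this probe and -3.27 ± 0.37 (standard error) with probe 1. Both values use labelled arf2 gnc gnl replicates 1 and 2, which were not well above background. The standard error rests on a spread shared by all groups, while the log2 SD of the labelled arf2 gnc gnl arrays was 0.95 with probe 1 and 0.96 with probe 2.

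**Figure D1:**
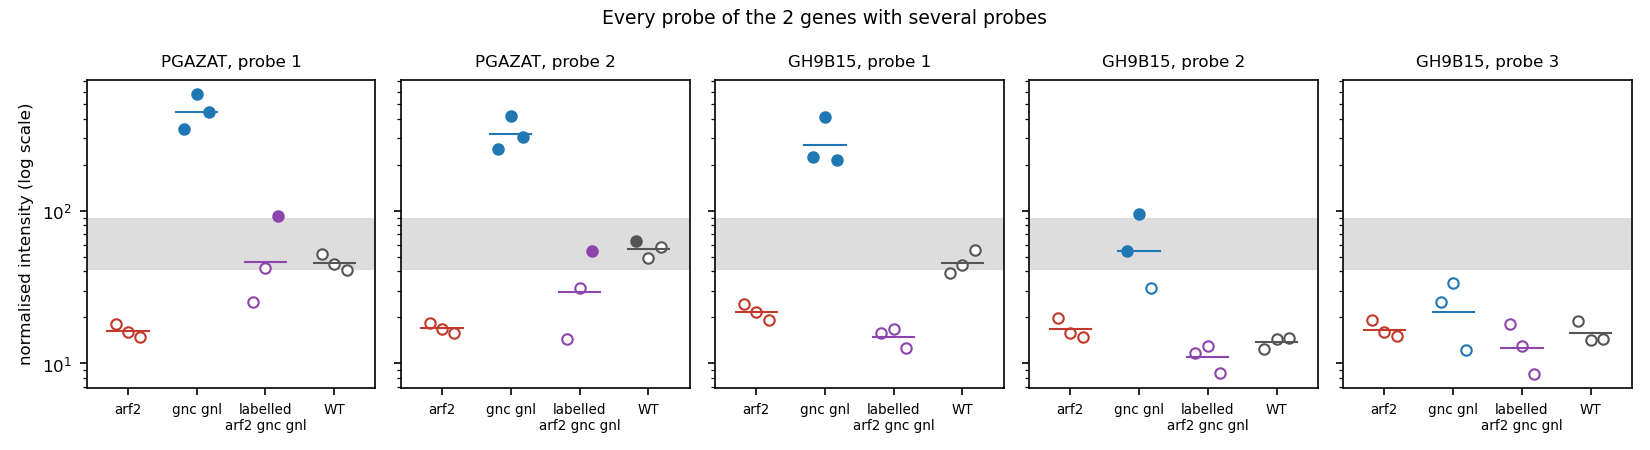
Normalised intensity (log axis) of the 2 PGAZAT probes and the 3 GH9B15 probes in arf2, gnc gnl, the libraries labelled arf2 gnc gnl and WT. Points are arrays, filled where well above background and open where not, the line is the geometric mean, and the grey band spans 41.4 to 88.8, the range over arrays of the lowest level well above background. The gnc gnl points stand above the band with both PGAZAT probes and with GH9B15 probe 1, while GH9B15 probe 3 is open on every array.

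GH9B15, of the GH9 family, had the same high group. Its probe 1 read 24.6, 21.7 and 19.3 in arf2, 224.4, 409.0 and 213.8 in gnc gnl, 15.7, 16.8 and 12.6 in the labelled arf2 gnc gnl libraries, and 39.0, 43.9 and 55.1 in WT. Only the gnc gnl arrays were well above background, and they overlapped no other group. The means were 21.9 ± 2.63 in arf2, 282 ± 110 in gnc gnl, 15.1 ± 2.18 in the labelled arf2 gnc gnl libraries and 46.0 ± 8.27 in WT (SD, n = 3 each). The gnc gnl level was at least 4.26-fold that of WT. The libraries labelled arf2 gnc gnl were at least 5.17-fold lower than gnc gnl, and arf2 was at least 3.32-fold lower than gnc gnl. The remaining comparisons of this probe were between groups that were not well above background, so no fold is given.

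The other GH9B15 probes gave less. Probe 2 read 19.7, 15.9 and 14.8 in arf2, 54.1, 95.1 and 31.0 in gnc gnl, 11.8, 13.0 and 8.7 in the labelled arf2 gnc gnl libraries, and 12.5, 14.4 and 14.6 in WT, and was well above background on 2 of the 3 gnc gnl arrays alone. Probe 3 was well above background on none of the 12 arrays, with values between 8.5 and 33.7. The 3 probes thus differ in whether the gene was measured at all.

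ATPMEPCRD, a pectin methylesterase, was the one wall enzyme of the set that was well above background on all 12 arrays and differed between all 4 genotypes without overlap. It read 239.9, 287.2 and 391.0 in arf2, 2930.9, 2345.3 and 2612.5 in gnc gnl, 827.3, 1144.8 and 1200.5 in the labelled arf2 gnc gnl libraries, and 2035.8, 1642.4 and 1343.9 in WT. The order from low to high was arf2, the libraries labelled arf2 gnc gnl, WT and gnc gnl, and no neighbours in it overlapped. Group means were 306 ± 77.3 in arf2, 2630 ± 293 in gnc gnl, 1058 ± 201 in the labelled arf2 gnc gnl libraries and 1674 ± 347 in WT (SD, n = 3 each). The arf2 level was 0.182 times the WT level, a log2 difference of -2.46 ± 0.21. The gnc gnl level was 1.59-fold the WT level, with a log2 difference of 0.67 ± 0.21. The libraries labelled arf2 gnc gnl stood at 3.48-fold the arf2 level, with log2 differences of 1.80 ± 0.21 from arf2, -1.33 ± 0.21 from gnc gnl and -0.66 ± 0.21 from WT.

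On slide 1 alone, the single arf2 array and the WT arrays gave a log2 difference of -2.78 for ATPMEPCRD. On slide 2 the labelled arf2 gnc gnl arrays differed from the arf2 arrays by 1.54, and on slide 3 the single labelled arf2 gnc gnl array differed from the gnc gnl arrays by -1.13. These within-slide values had the sign of the values over all arrays. With slide fitted as a fixed block, the log2 difference between gnc gnl and WT, which then runs through the other genotypes, was -0.12 ± 0.45. The higher level in gnc gnl than in WT is therefore not shown under that fit, and neither is a lower one.

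For PGAZAT and GH9B15, no fit by slide gives a measured difference between gnc gnl and WT, since probe 1 of neither gene was well above background in WT. Within slide 3 the labelled arf2 gnc gnl array, well above background for PGAZAT, stood below the gnc gnl arrays by a log2 difference of -2.26 for that gene.

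QRT2, a polygalacturonase known from anther dehiscence and pollen separation, was well above background on all 12 arrays and showed no separation of the genotypes. It read 159.1, 141.9 and 190.1 in arf2, 167.0, 246.2 and 236.5 in gnc gnl, 181.8, 149.7 and 178.7 in the labelled arf2 gnc gnl libraries, and 196.9, 86.1 and 161.0 in WT. WT replicate 2 was the lowest array and the groups overlapped in all 6 comparisons. The log2 difference from WT was 0.22 ± 0.26 in arf2, 0.61 ± 0.26 in gnc gnl and 0.28 ± 0.26 in the labelled arf2 gnc gnl libraries. With a normexp background correction these were -0.29, -0.32 and -0.54. Without WT replicate 2 the difference was -0.13 in arf2 and -0.07 in the labelled arf2 gnc gnl libraries.

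ADPG1, the polygalacturonase of fruit and anther dehiscence, was well above background on none of the 12 arrays. Its values lay between 10.9 and 21.4 over the 12 arrays, below the lowest level well above background on every array, and no difference could be measured. The same held for IDA, the peptide ligand, with values between 9.1 and 20.5.

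**Figure D2:**
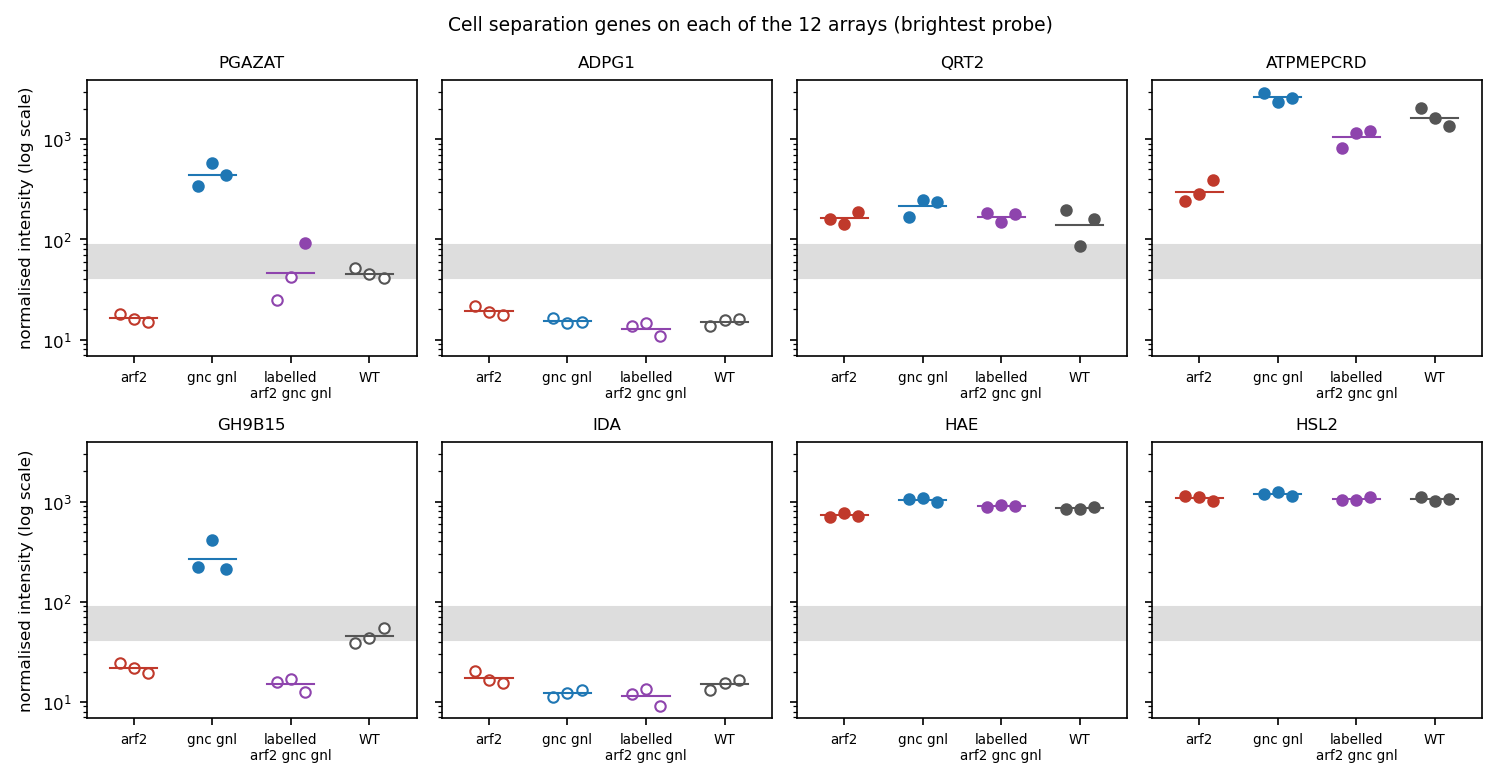
Normalised intensity (log axis) of the 8 genes, each by its brightest probe, in arf2, gnc gnl, the libraries labelled arf2 gnc gnl and WT. Points are arrays, filled where well above background and open where not, the line is the geometric mean and the grey band spans 41.4 to 88.8. ATPMEPCRD is spread over 4 separate levels, HAE and HSL2 lie in narrow ranges, and ADPG1 and IDA are open throughout.

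HAE, a receptor kinase for IDA, was well above background on all 12 arrays and varied little in size. It read 697.4, 766.4 and 723.8 in arf2, 1050.2, 1097.9 and 982.5 in gnc gnl, 880.4, 921.7 and 910.4 in the labelled arf2 gnc gnl libraries, and 839.8, 848.1 and 875.4 in WT. The order was arf2, WT, the labelled arf2 gnc gnl libraries and gnc gnl, with no overlap between neighbours, although the lowest labelled arf2 gnc gnl array stood at 880.4 against the highest WT array at 875.4. The means were 729 ± 34.8 in arf2, 1044 ± 58.0 in gnc gnl, 904 ± 21.4 in the labelled arf2 gnc gnl libraries and 854 ± 18.6 in WT (SD, n = 3 each). The log2 difference from WT was -0.23 ± 0.06 in arf2, 0.29 ± 0.06 in gnc gnl and 0.08 ± 0.06 in the labelled arf2 gnc gnl libraries, the last of which was -0.04 with a normexp background correction. Within slide 1 the arf2 array stood at -0.29 relative to WT.

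HSL2, the related receptor, differed less. It read 1145.8, 1105.0 and 1015.1 in arf2, 1185.1, 1258.5 and 1139.4 in gnc gnl, 1046.0, 1035.1 and 1114.6 in the labelled arf2 gnc gnl libraries, and 1119.2, 1008.7 and 1065.3 in WT. The gnc gnl arrays were above all WT arrays and all labelled arf2 gnc gnl arrays, and the other groups overlapped. The log2 difference from WT was 0.03 ± 0.07 in arf2, 0.17 ± 0.07 in gnc gnl and 0.00 ± 0.07 in the labelled arf2 gnc gnl libraries. With normexp these were -0.10, -0.08 and -0.22.

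**Figure D3:**
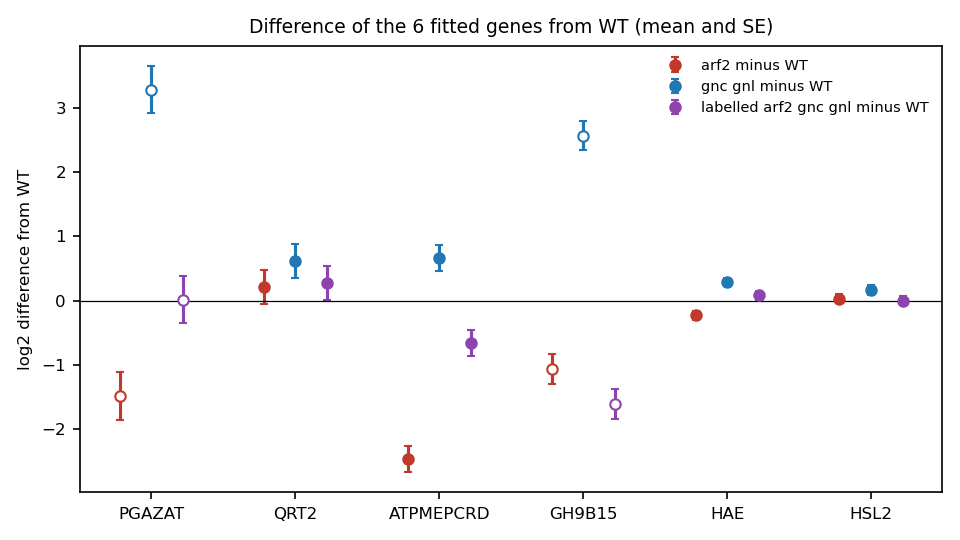
Log2 difference from WT, with its standard error, of the 6 fitted genes in arf2, gnc gnl and the libraries labelled arf2 gnc gnl. Open points mark comparisons in which at least 1 of the groups was not well above background on any of its arrays. An open point is a fitted value, not a measured difference. With probe 1 and the scaling of the main fit, the gnc gnl levels of PGAZAT and GH9B15 were at least 7.01-fold and 4.26-fold those of WT. The second PGAZAT probe gave 5.67-fold. The filled point of ATPMEPCRD stands at -2.46 in arf2.

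Of the 8 genes, 6 entered the fit over all 18976 genes tested, and PGAZAT and GH9B15 did so only through gnc gnl, the group where they were high. A gene was called past the threshold at an adjusted p under 0.05 by limma with Benjamini-Hochberg adjustment. In arf2 against WT, ATPMEPCRD, PGAZAT and GH9B15 were called lower and none higher, beside 3.2% of all genes called lower, 2.49% called higher and 5.69% called in either direction. With probe 1, neither PGAZAT nor GH9B15 was well above background on any arf2 or WT array, so ATPMEPCRD is the one measured difference of these. The count of 3 was 1 with slide as a fixed block, with normexp, without WT replicate 2, without WT replicate 3 or without arf2 replicate 2. Of all genes 1080 passed in the main fit, 451 with slide as a fixed block and 112 with normexp. Without WT replicate 3 it was 537 of all genes, and without arf2 replicate 2 it was 487. The arrays of the groups did not overlap for 4 of the 6, beside 25.6% of all genes. The 4 include PGAZAT and GH9B15, whose order here is between levels not well above background and was not measured.

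In gnc gnl against WT, PGAZAT, GH9B15, ATPMEPCRD and HAE were called higher and none lower, beside 12.6% of all genes called higher, 11.9% called lower and 24.6% in either direction. The arrays did not overlap for 5 of the 6, beside 42.5% of all genes. With slide as a fixed block in limma none of the 6 was called, beside 29 of all genes, and 2 had an unadjusted p under 0.05. The log2 difference was then -0.12 ± 0.45 for ATPMEPCRD and 0.18 ± 0.15 for HAE. With a normexp background correction none of the 6 was called by limma, beside 2181 of all genes. An unadjusted p under 0.05 was then seen for 1 of the 6, beside 5654 of all genes. The log2 difference with normexp was 0.66 for ATPMEPCRD and 0.21 for HAE. For PGAZAT and GH9B15 the fitted values were 1.48 ± 0.67 and 0.56 ± 0.70, with WT levels not well above background. These are smaller than the bounds of 7.01-fold and 4.26-fold given above, which hold for the scaling of the main fit.

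In the libraries labelled arf2 gnc gnl against WT, GH9B15 was called lower and none higher, with neither group well above background, beside 0.943% of all genes called lower, 1.33% called higher and 2.27% in either direction. The arrays did not overlap for 3 of the 6, beside 29.9% of all genes. The 3 include GH9B15, whose order here was not measured. With slide as a fixed block in limma, or with normexp, none of the 6 was called. In each of these fits 2 of the 6 had an unadjusted p under 0.05, beside 2848 of all genes with normexp. Of all genes, 6 were called with slide as a fixed block and 15 with normexp, against 431 in the main fit.

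Between the mutants, PGAZAT, ATPMEPCRD and HAE were called higher in the libraries labelled arf2 gnc gnl than in arf2, beside 4.27% of all genes called higher and 8.96% in either direction, and 4 of the 6 did not overlap, beside 32.8%. No arf2 array and 1 of the labelled arf2 gnc gnl arrays was well above background for PGAZAT, so no fold can be given, and its log2 difference was 0.01 with normexp. The 4 that did not overlap include PGAZAT and GH9B15, and no array of either group was well above background for GH9B15. The count of 3 was 1 with slide as a fixed block and 0 with normexp by limma, where 1 had an unadjusted p under 0.05, beside 3129 of all genes. It was 1 without arf2 replicate 1, arf2 replicate 2, labelled arf2 gnc gnl replicate 2 or labelled arf2 gnc gnl replicate 3. Of all genes 1701 passed in the main fit, 56 with slide as a fixed block and 25 with normexp. Without these 4 arrays in turn, 183, 136, 159 and 501 of all genes passed. PGAZAT, ATPMEPCRD and GH9B15 were called lower in the libraries labelled arf2 gnc gnl than in gnc gnl, beside 6.39% of all genes called lower and 11.7% in either direction, and 5 of the 6 did not overlap, beside 31.5%. That count of 3 was 1 with normexp, where 297 of all genes passed against 2215 in the main fit. The GH9B15 log2 difference was then -1.93, smaller in size than the bound of 5.17-fold. PGAZAT, ATPMEPCRD, GH9B15 and HAE were called lower in arf2 than in gnc gnl, beside 19.5% of all genes called lower and 36.4% in either direction, and 4 of the 6 did not overlap, beside 45.5%. That count of 4 was 2 with normexp, where 3339 of all genes passed against 6915 in the main fit. The log2 differences were then -2.16 for PGAZAT and -1.33 for GH9B15, smaller in size than the bounds of 5.47-fold and 3.32-fold. The comparisons share arrays, so their values are not independent of each other.

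The other genes of these pathways were taken from 7 lists of 104 genes, 100 of them on the array and 80 tested. The median log2 difference over all tested genes stood between -0.01 and 0.01 in each comparison. In gnc gnl 27 of the 80 rose and 6 fell against WT by limma's moderated test, 41.2% in all beside 24.6% of all genes, with a median log2 difference of 0.16. With slide as a fixed block in limma, none of the 80 and 29 of all genes passed, and 18 of the 80 had an unadjusted p under 0.05.

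Of 23 abscission signalling genes and regulators, 8 rose and 1 fell in gnc gnl against WT, 39.1% beside 24.6% of all genes. The genes named from this list here were chosen after their values were seen, so their values are descriptions, and 14 of the 23 were not called. MKK4 and MKK5, the MAP kinase kinases downstream of HAE and HSL2, had log2 differences of 0.44 ± 0.08 and 0.42 ± 0.07. The MAP kinase MPK3 had one of 0.32 ± 0.07. The KNOX genes KNAT1, KNAT2 and KNAT6 differed by 0.37, 0.29 and 0.40, and BOP1 and BOP2, which are needed for abscission zones to form, by 0.49 and 0.32. The zinc finger gene ZFP2 fell by 0.39 on the log2 scale. None of the 23 passed limma's test in arf2 against WT, where 3 had an unadjusted p under 0.05, beside 3598 of all 18976 genes. None passed in the libraries labelled arf2 gnc gnl against WT either, where 4 had one, beside 3563 of all genes.

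Of 15 other pectin methylesterases, 7 rose and 2 fell in gnc gnl against WT, 60% beside 24.6% of all genes. ATPMEPCRB read 3365.0, 3939.4 and 4865.4 in gnc gnl against 1297.3, 1384.7 and 1247.5 in WT, a log2 difference of 1.62 ± 0.18 (adjusted p 0.000377 by limma). PME61 read 412.2, 561.8 and 655.1 in gnc gnl against 1300.6, 1114.5 and 1456.3 in WT, a log2 difference of -1.27 ± 0.16 (adjusted p 0.000738 by limma). The groups overlapped for neither gene, and the list as a whole held changes in both directions. None of the 15 passed limma's test in arf2 against WT, where 8 had an unadjusted p under 0.05, beside 3598 of all 18976 genes. Of 3 pectin methylesterase inhibitors none passed in gnc gnl against WT, and none had an unadjusted p under 0.05.

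Of 9 other polygalacturonases and polygalacturonase inhibitors, 3 rose and 1 fell in gnc gnl against WT, 44.4% beside 24.6% of all genes. AT2G43860, of the polygalacturonase list, read 79.2, 194.7 and 111.4 in gnc gnl, where it was well above background, against 13.9, 16.1 and 16.5 in WT, where it was not. It was at least 1.89-fold higher in gnc gnl, and it entered the test only through that group, so no p-value is set beside this bound. AT1G60590, of the same list, was lower, at 4598.3, 5037.0 and 5418.7 in gnc gnl against 8003.1, 8907.0 and 7966.0 in WT (log2 difference -0.73 ± 0.08, adjusted p 0.000286 by limma). PGIP2, which encodes a protein that inhibits polygalacturonases, rose in gnc gnl, with a log2 difference of 0.74 ± 0.09 (adjusted p 0.000711 by limma).

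Of 11 pectate lyases, enzymes that cleave demethylated pectin, 5 rose and none fell in gnc gnl against WT, 45.5% beside 24.6% of all genes. AT5G04310, of that list, read 343.7, 248.4 and 280.1 in gnc gnl against 161.6, 124.9 and 121.7 in WT, a log2 difference of 1.09 ± 0.15 (adjusted p 0.000944 by limma). Of 16 other GH9 endoglucanases, 4 rose and 1 fell in gnc gnl against WT, 31.2% beside 24.6% of all genes. Of 3 fruit dehiscence regulators, none rose and 1 fell, 33.3% beside the same 24.6%, and the one that fell was RPL, a homeodomain gene named after its values were seen, with a log2 difference of -0.23 ± 0.08.

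**Figure D4:**
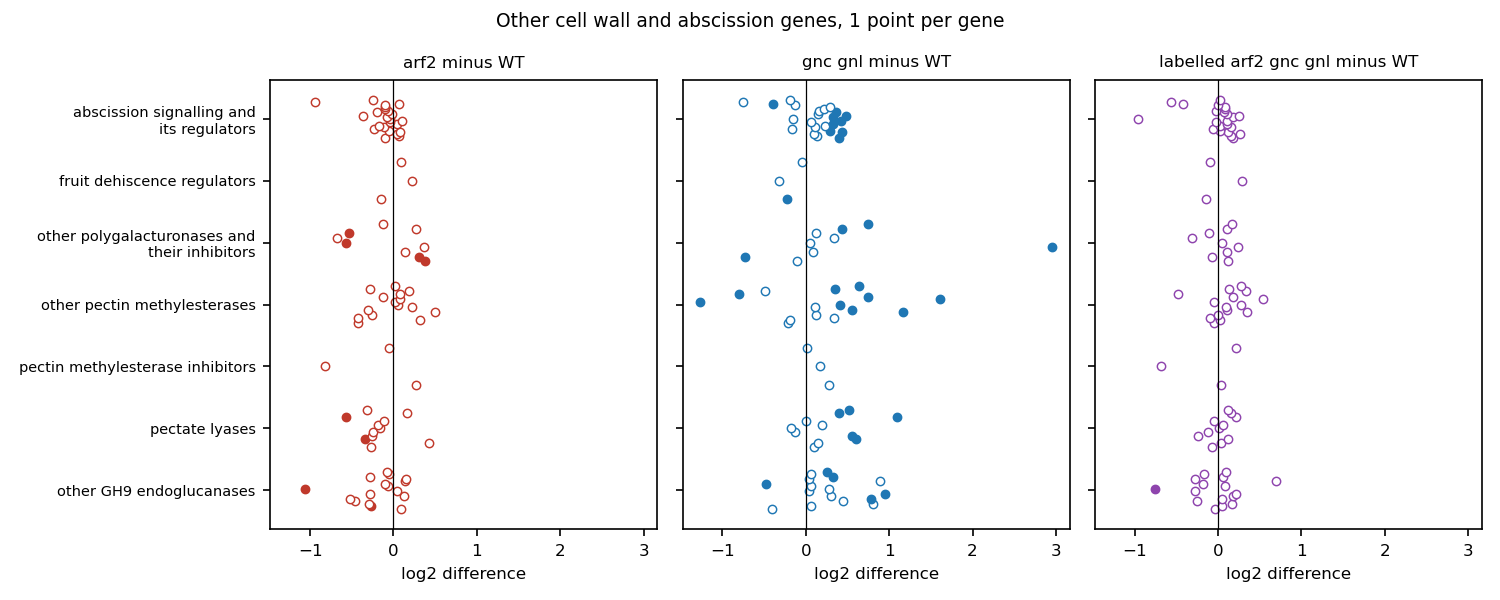
Log2 difference of the 80 tested pathway genes, by list, in 3 panels for arf2, gnc gnl and the libraries labelled arf2 gnc gnl, each against WT. Each point is a gene and filled points passed the threshold, with 8 filled in arf2, 33 in gnc gnl and 1 in the labelled arf2 gnc gnl panel.

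In arf2 against WT, 2 of the 80 rose and 6 fell, 10% in all beside 5.69% of all genes, with a median log2 difference of -0.09. CEL3, a GH9 endoglucanase, read 90.5, 83.5 and 71.5 in arf2, where it was not well above background, against 197.2, 166.7 and 150.6 in WT. It was at least 2.06-fold lower in arf2. The adjusted p of 0.00272 by limma belongs to the fitted difference, which uses arf2 levels not well above background, and not to this bound. QRT3, a polygalacturonase known from pollen separation, read 211.5, 236.1 and 279.8 in arf2 against 357.8, 346.2 and 344.8 in WT (log2 difference -0.54 ± 0.10, adjusted p 0.0100 by limma). GH9B5, AT3G26610 (PGX1, a polygalacturonase of cell expansion) and AT3G07010 of the pectate lyase list fell by 0.27, 0.57 and 0.34 on the log2 scale. AT1G48100 of the polygalacturonase list rose, with a log2 difference of 0.38 ± 0.10 (adjusted p 0.0447 by limma). The count of 8 was 1 with slide as a fixed block and 0 with normexp by limma, where 14 had an unadjusted p under 0.05, beside 2193 of all genes. It was 2 when any of WT replicates 1 and 3, arf2 replicate 2 and labelled arf2 gnc gnl replicates 1 and 2 was left out, 3 without arf2 replicate 1, and 4 without WT replicate 2 or labelled arf2 gnc gnl replicate 3. It was 2 without all the libraries labelled arf2 gnc gnl, a fit chosen after seeing the data.

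In the libraries labelled arf2 gnc gnl against WT, 1 of the 80 passed, 1.25% beside 2.27% of all genes. This gene was CEL3, at 103.5, 110.2 and 90.6 in the labelled arf2 gnc gnl libraries against 197.2, 166.7 and 150.6 in WT (log2 difference -0.75 ± 0.16, adjusted p 0.0338 by limma). None passed limma's test with slide as a fixed block, where 5 had an unadjusted p under 0.05, or with normexp, where 16 had one, beside 2848 of all genes. None of the 80 passed when any single WT array, any single labelled arf2 gnc gnl array or arf2 replicate 2 was left out, and 2 passed without gnc gnl replicate 2 or without gnc gnl replicate 3.

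Against arf2, the libraries labelled arf2 gnc gnl had 9 of the 80 genes higher and 3 lower, 15% beside 8.96% of all genes. None of the 80 passed limma's test with slide as a fixed block, where 22 had an unadjusted p under 0.05 and 56 of all genes passed. With normexp none of the 80 passed either, and 25 of all genes did. An unadjusted p under 0.05 was then seen for 20 of the 80, beside 3129 of all genes. BOP1 read 187.6, 210.3 and 201.9 in the labelled arf2 gnc gnl libraries against 114.5, 121.4 and 159.5 in arf2, a log2 difference of 0.61 ± 0.11 (adjusted p 0.0143 by limma). AT5G04310, AT3G07010 and GH9B5 were higher by 0.78, 0.46 and 0.32, and AT1G60590 and ZFP2 had log2 differences of -0.38 and -0.49. AT5G04310 read 80.4 in arf2 replicate 1, where the lowest level well above background was 88.8. The lowest differences under the alternatives were 0.06 for AT5G04310, 0.37 for AT3G07010, 0.07 for GH9B5 and 0.07 for BOP1. The count of 12 was 0 without arf2 replicate 1, 0 without arf2 replicate 2, 1 without labelled arf2 gnc gnl replicate 2, 3 without labelled arf2 gnc gnl replicate 3 and 18 without arf2 replicate 3.

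Against gnc gnl, the libraries labelled arf2 gnc gnl had 3 of the 80 genes higher and 14 lower, 21.2% beside 11.7% of all genes. AT2G43860 read 14.4, 21.8 and 19.3 in the labelled arf2 gnc gnl libraries, not well above background. In gnc gnl it read 79.2, 194.7 and 111.4. The level in the labelled arf2 gnc gnl libraries was at least 2.29-fold lower, and the gene entered the test only through gnc gnl. PME61 and AT1G60590 were higher, with log2 differences of 1.22 and 0.65, and CEL3, AT3G24670 and PGIP2 had log2 differences of -1.03, -0.80 and -0.58. The median log2 difference over the 80 was -0.17. The count of 17 was 3 with slide as a fixed block, 5 with normexp, 9 without labelled arf2 gnc gnl replicate 1 and 10 without labelled arf2 gnc gnl replicate 2.

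In arf2 against gnc gnl, 10 of the 80 were higher and 41 lower, 63.7% beside 36.4% of all genes, with a median log2 difference of -0.30. PME3, a pectin methylesterase, read 13040.3, 12833.5 and 12222.9 in arf2 against 25328.0, 20846.7 and 23306.7 in gnc gnl (log2 difference -0.86 ± 0.09, adjusted p 0.000111 by limma). AT5G04310, AT3G07010 and PGIP2 had log2 differences of -1.66, -0.94 and -0.86, AT2G43860 was at least 1.48-fold lower, and AT1G60590 was higher by 1.03 on the log2 scale. The AT5G04310 level of arf2 replicate 1 was not well above background, and the difference of that gene was -0.77 at its smallest under the alternatives. The count of 51 was 5 with slide as a fixed block and 27 with normexp.

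Likeness of pattern was described by Pearson's correlation of log2 levels over the 12 arrays among 18329 tested genes without missing values, where the points share genotypes and slides, and Spearman's rho of the genes named here lay between 0.776 and 0.979. The genes most like PGAZAT were ERS1, an ethylene receptor gene (r = 0.977), and AT1G11330 (r = 0.977). ATPMEPCRD was most like AT4G28000 (r = 0.982) and SLAH2, a homologue of the anion channel SLAC1 (r = 0.975). SLAH2 was well above background in gnc gnl alone, so its levels elsewhere are upper bounds.

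GH9B15 was most like CP1, a cysteine proteinase gene (r = 0.965), and NAC6, a NAC transcription factor known from leaf senescence (r = 0.949). CP1 stood at a log2 difference of 2.002 ± 0.175 from WT in gnc gnl, -0.36 ± 0.18 in arf2 and -0.32 ± 0.18 in the labelled arf2 gnc gnl libraries. HAE was most like GolS3, a galactinol synthase gene (r = 0.979), and the receptor-family gene SRF8 (r = 0.965). HSL2 was most like MS2, a methionine synthase gene (r = 0.948), and AT5G56350 (r = 0.932). QRT2 had the weakest likeness to any gene, at 0.869 with SPP1, a sucrose phosphatase gene, and 0.866 with AT5G27410.

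Among the 6 genes themselves, PGAZAT and HAE were the most alike over the 12 arrays (r = 0.902), followed by ATPMEPCRD and HAE (r = 0.869), PGAZAT and GH9B15 (r = 0.858) and PGAZAT and ATPMEPCRD (r = 0.828). QRT2 and ATPMEPCRD were the least alike (r = 0.220). With probe 1, GH9B15 was well above background on no array outside gnc gnl. PGAZAT was so outside gnc gnl only on labelled arf2 gnc gnl replicate 3. All correlations of these genes therefore include values with no measured order.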

How the data were processed

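The deposited scanner files hold spot intensity on a linear scale, already background-subtracted and detrended per the file headers (Agilent Feature Extraction 10.7.3.1 per the submitters' processing notes). Control spots and outlier spots were left out, spots of a probe were averaged, and log2 intensity minus the array's 75th percentile was analysed. Of 43603 probes, 34285 were matched to a locus through a RefSeq annotation of assembly TAIR10.1. Coordinates are left out because the arrays were designed on an earlier build. Each gene was represented by its brightest probe on average, and entered the test when, in some genotype, that probe was well above background on every array, with at least 2 values in each genotype (18976 genes). A linear model with genotype means, using all 12 arrays, was fitted in limma 3.58.1 (lmFit, eBayes; R 4.3.3; version 1.17.8 of data.table) with 8 residual degrees of freedom. The number of arrays limits the precision. Figures used matplotlib 3.10.9.

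The 8 genes, the pathway and marker lists and the rules were chosen with earlier results of these data known. Genes named were the 8, ARF2, GNC and GNL, up to 6 pathway genes per comparison with the smallest p, and the 2 genes most like each tested member. MKK4, MKK5, MPK3, KNAT1, KNAT2, KNAT6, BOP2, RPL and, in gnc gnl against WT, BOP1 and ZFP2 lie outside that rule and were named after their values were seen. Alternatives were other scalings, filters, probe averaging, outlier spots kept, slide and replicate as blocks, fewer groups, each array left out, and normexp (offset 50) on the median spot signal, since the mean spot signal was not among the columns used here. Fits were tested on simulated data. The labels give replicate numbers without saying that they pair samples. Same-numbered samples of the labelled arf2 gnc gnl libraries and gnc gnl deviated together (correlations 0.140, 0.132 and 0.349, all over 0.1). Both samples of the pair at 0.349 were on slide 3. The numbers were taken as pairs for that comparison only in the alternative fit with a replicate block. All other values given for it are from the main fit or its other alternatives, which do not use the numbers. In no other comparison were all pairs over 0.1.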

Additional observations from a re-analysis of the deposited data

How the results depend on the processing

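Of 846 log2 differences of the 6 fitted genes recomputed under the alternatives, 792 stayed within the array spread, and 28 changed sign. Of the 28, 1 had been called, ATPMEPCRD in gnc gnl against WT, at -0.12 ± 0.45 with slide as a fixed block. The other 27, 10 of them with normexp, belonged to differences that had not been called, 20 of QRT2, HSL2 and HAE and 7 of PGAZAT. Of 719 log2 differences of the named pathway genes, 593 stayed past the threshold, 126 lost it and 0 changed sign. The cause of these changes was not tested. Where limma called none of the 80 pathway genes, 5 to 22 of them had an unadjusted p under 0.05 in the fits that kept all arrays. PGAZAT and GH9B15 are limited by signal near background outside gnc gnl, and every comparison by 3 arrays a group.

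Counts past the threshold are given for all genes, the 80 pathway genes and the 6 fitted genes. In arf2 against WT they were 1080, 8 and 3. They became 451, 1 and 1 with slide as a fixed block, 112, 0 and 1 with normexp, and 694 genes and 3 pathway genes with no filter. Pathway counts of 5 came from the mean of all probes, median scaling, the 2 groups alone, slide as a random block and probes well above background on all arrays, with 1 of the 6 in the 2 groups alone and in the stricter filter. Without the libraries labelled arf2 gnc gnl, chosen after seeing the data, 692 genes and 2 pathway genes passed. Leaving out each array gave 441 to 1488 genes, 2 to 8 pathway genes and 1 to 3 of the 6.

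In gnc gnl against WT the counts were 4664, 33 and 4. They became 29, 0 and 0 with slide as a fixed block, 2181, 19 and 0 with normexp, and 2 of the 6 with the stricter filter. Leaving out each array gave 2347 (without WT replicate 2) to 4831 genes, 23 to 34 pathway genes and 3 to 5 of the 6.

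In the libraries labelled arf2 gnc gnl against WT the counts were 431, 1 and 1. They became 6, 0 and 0 with slide as a fixed block, 15, 0 and 0 with normexp, 705, 2 and 0 with the 2 groups alone, 221 genes and 0 pathway genes with no filter, 0 and 0 of the pathway genes and the 6 with the stricter filter, and 0 of the 6 with the mean of all probes. Outlier spots kept, quantile normalization and the replicate block each gave 2 pathway genes. Leaving out each array gave 126 to 530 genes, 0 to 2 pathway genes and 1 of the 6 throughout.

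In the labelled arf2 gnc gnl libraries against arf2 the counts were 1701, 12 and 3. They became 56, 0 and 1 with slide as a fixed block, 25, 0 and 0 with normexp, 5009, 25 and 5 with no filter, 966 genes with median scaling, and 1123 genes and 1 of the 6 with the 2 groups alone. Leaving out each array gave 136 to 2812 genes, 0 to 18 pathway genes and 1 to 4 of the 6. Against gnc gnl the counts were 2215, 17 and 3. They became 174 genes and 3 pathway genes with slide as a fixed block, 297, 5 and 1 with normexp, 1427 genes with no filter, 1155 genes with the 2 groups alone and 1 of the 6 with the stricter filter. Leaving out each array gave 877 to 2383 genes, 9 to 20 pathway genes and 3 to 4 of the 6.

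In arf2 against gnc gnl the counts were 6915, 51 and 4. They became 411 genes and 5 pathway genes with slide as a fixed block, 3339, 27 and 2 with normexp and 2 of the 6 with the stricter filter. Leaving out each array gave 4716 to 7017 genes, 42 to 52 pathway genes and 4 of the 6 throughout.

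The share of calls that were higher moved by over 10 percentage points under another scaling or background correction in arf2 against WT (43.70% of genes, 67.86% with normexp; 25% of pathway genes, 0% with median scaling), in the labelled arf2 gnc gnl libraries against arf2 (47.68% of genes, 28.00% with normexp; 75% of pathway genes, 50% with median scaling) and against gnc gnl (45.24% of genes, 33.63% with median scaling; 17.65% of pathway genes, 40% with normexp).

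With the replicate block, 2093 genes, 22 pathway genes and 3 of the 6 passed in the labelled arf2 gnc gnl libraries against gnc gnl, where the numbers were taken as pairs, and the named pathway genes of that comparison all passed. In the other comparisons, where samples share only a number (correlations -0.37 to 0.37 over all 18 pairs, 7 of them over 0.1), the block moved no count by over 1.5 times apart from the pathway count of 2 in the labelled arf2 gnc gnl libraries against WT.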
